A study of Homo sapiens with 54 samples.

Results

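Replication-dependent histone genes were followed in 54 RNA-seq libraries of 3 human prostate cancer cell lines. Members were the rows of the deposited table whose gene symbol is that of a clustered core histone gene (H2AC, H2BC, H3C or H4C with a number) or of a linker histone gene (H1 with a number), and that reached 1 CPM (reads of a gene scaled to a common library size) in at least 3 libraries. Of 65 rows with such a symbol, 61 reached that level. H1-10 and its antisense gene H1-10-AS1 matched by their letters only, since H1-10 is a replication-independent linker histone, and were set apart. This left 59 members of 19225 rows: 4 H1, 15 H2A, 16 H2B (1 of them the pseudogene H2BC20P), 11 H3 and 13 H4 genes. On the GRCh38 build, 44 of them lie on chromosome 6, 14 on chromosome 1 and 1, H4C16, on chromosome 12.

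The lines were 22Rv1, C4-2 and LNCaP, of which C4-2 was derived from LNCaP, and each label gave the genotype as WT. Each line was grown in medium with 10% fetal bovine serum to 70% confluence and treated for 12 h in 6 ways: E2 (estradiol, 100 nM) with enzalutamide (Enza, an androgen receptor antagonist, 1 µM), OSU-ERb-12 (OSU, an agonist of estrogen receptor beta, 100 nM) with Enza, E2 alone, OSU alone, Enza alone, or the ethanol vehicle. The serum was present in all groups, vehicle included. Each group held 3 libraries, prepared from total RNA with a stranded kit rather than from poly(A) selected RNA.

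Replication-dependent histone genes supply the nucleosome proteins that are needed when DNA is copied. They lie in clusters, have no introns, and are transcribed mainly in S phase. Their mRNAs end in a conserved stem-loop in place of a poly(A) tail. The stem-loop binding protein SLBP binds it, the U7 small nuclear RNA and its LSM10 and LSM11 proteins guide the cut that forms the end, and at the end of S phase the terminal uridylyl transferase TUT7 takes part in removing the mRNAs.

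The stem-loop is the sequence that makes these mRNAs a class, so it is shown for 7 members, read from the hg38 genome at the GENCODE gene models. Capitals mark the stem-loop, and 6 flanking bases stand on either side.
H1-5: cccaaaGGCTCTTTTCAGAGCCacccag
H2AC18: tcaaaaGGCTCTTTTCAGAGCCacccac
H2AC15: caaaaaGGTTCTTTTCAGAGCCacctac
H2BC12: cccaaaGGCTCTTTTAAGAGCCacttaa
H3C2: cccaaaGGCTCTTTTCAGAGCCacccac
H3C3: tgaaaaGGCTCTTTTCAGAGCCactcac
H4C4: accaacGGCCCTTTTCAGGGCCacctat
These lie at chr6:27866791-27866818 (minus strand) in H1-5, chr1:149842217-149842244 (minus strand) in H2AC18, chr6:27837879-27837906 (minus strand) in H2AC15, chr6:27146360-27146387 (minus strand) in H2BC12, chr6:26031591-26031618 (minus strand) in H3C2, chr6:26045843-26045870 (plus strand) in H3C3 and chr6:26188709-26188736 (minus strand) in H4C4. A stem-loop of this form was found within 150 bases after the stop codon in 51 of 58 members with a coding model (87.9%), and in 9 of 20394 other protein-coding genes (0.0441%). H4C14 and H4C15 were among the members with no match in that window.

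The libraries held 32819568 to 52417050 reads in genes, and the members took 401455 to 935841 of these, which is 1.06 to 2.04%. Small nuclear and nucleolar RNA took 2.08 to 4.36% of reads and mitochondrial ribosomal RNA 0.00841 to 0.196%. A few libraries stood apart. In the C4-2 vehicle group, library 1 carried a 22Rv1 tag in its labels although its title named C4-2. It held 87 reads of H4C4 (1.97 CPM), against at most 0.369 CPM in the other 17 C4-2 libraries, and this was 0.532% of the 22Rv1 vehicle mean. C4-2 E2 library 3 and 22Rv1 vehicle library 3 were high in mitochondrial ribosomal RNA, and 22Rv1 Enza library 3 and OSU+Enza library 2 were high in small RNA, at 4.36% and 4.04%. All 10 luminal prostate markers reached 1 CPM in each line, while the summed fibroblast markers (4 of 6 in the table) stayed at or below 22.4 CPM, the basal ones (2 of 6) at or below 4.64 CPM and the leukocyte ones (2 of 6) at or below 1.5 CPM. The fibroblast sum was highest in LNCaP, at 15.5 to 22.4 CPM.

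In vehicle, the summed level of the 59 members was 14859 ± 624 CPM in 22Rv1 cells, 16050 ± 829 CPM in C4-2 cells and 11216 ± 920 CPM in LNCaP cells (SD, n = 3 each). In RNA from whole cultures, a larger share of cells in S phase and more histone mRNA per cell cannot be told apart. The 5 families took similar shares of the members' reads: 11.6 to 14.6% for H1, 21.6 to 23.0% for H2A, 22.8 to 23.3% for H2B, 17.9 to 18.9% for H3 and 22.9 to 24.5% for H4 over the 3 lines.

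**Figure D1:**
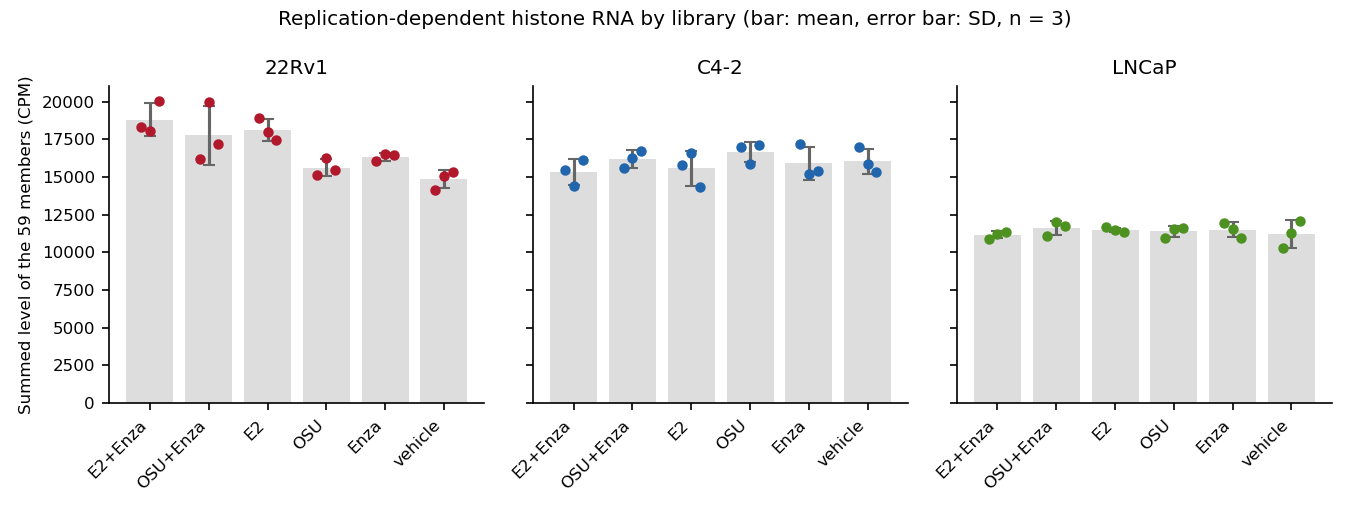
Summed level of the 59 replication-dependent histone genes, in CPM, by treatment in 22Rv1, C4-2 and LNCaP cells. Bars are means, error bars SD and points the 3 libraries. In 22Rv1, the 3 E2 libraries lie at 17462 to 18920 CPM, above the vehicle libraries at 14156 to 15347 CPM, while the LNCaP means lie between 11172 and 11596 CPM.

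Per kilobase of coding sequence, H4C15, which encodes the common H4 protein, was the most abundant member in all 3 lines, with 3784 ± 122, 3151 ± 245 and 2843 ± 300 CPM per kb in 22Rv1, C4-2 and LNCaP vehicle cells (SD, n = 3 each). Genes of the same chromosome 1 cluster came next in 22Rv1: the H2A gene H2AC18 had 2565 ± 106 CPM per kb, the H3 gene H3C14 had 2253 ± 93.2, and the H2B gene H2BC18 had 2114. In C4-2 cells H2BC18 had 1301 CPM per kb, below H1-2 at 1329 and H3C2 at 1854, both of chromosome 6. H2AC18 and H3C14 had 2147 ± 117 and 1990 ± 148 CPM per kb in LNCaP cells, which overlap within 1 SD. The linker genes H1-5 and H1-2, whose products bind DNA between nucleosomes, exchanged places: per kb, H1-5 exceeded H1-2 in 22Rv1 (1153 against 694), and H1-2 exceeded H1-5 in C4-2 (1329 against 1200) and LNCaP (931 against 597).

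The members with the highest CPM of each family differed in how they ranked the lines in vehicle. The linker gene H1-2 had 425, 452 and 460 CPM in 22Rv1, 886, 841 and 832 CPM in C4-2, and 547, 610 and 636 CPM in LNCaP. H1-5 had 737, 802 and 817 CPM in 22Rv1, 867, 794 and 792 CPM in C4-2, and 383, 396 and 441 CPM in LNCaP. So H1-2 was lowest in 22Rv1 without overlap, whereas H1-5 was lowest in LNCaP and overlapped between 22Rv1 and C4-2. H2BC18 had 759, 836 and 821 CPM in 22Rv1, 527, 491 and 469 CPM in C4-2, and 399, 461 and 472 CPM in LNCaP. H2BC12, an H2B gene of chromosome 6, had 302, 327 and 341 CPM in 22Rv1, 686, 645 and 631 CPM in C4-2, and 386, 404 and 424 CPM in LNCaP. In these H2B genes 22Rv1 was highest for H2BC18 and lowest for H2BC12, in each case without overlap. H3C14 had 889, 922 and 966 CPM in 22Rv1, 956, 865 and 849 CPM in C4-2, and 753, 827 and 874 CPM in LNCaP. H2AC20 had 294, 317 and 318 CPM in 22Rv1, 339, 318 and 305 CPM in C4-2, and 278, 290 and 311 CPM in LNCaP. H2AC20 overlapped between all lines, and H3C14 between C4-2 and each of the other lines but not between 22Rv1 and LNCaP. H2AC18 had 967, 1010 and 1050 CPM in 22Rv1, 889, 847 and 809 CPM in C4-2, and 797, 847 and 888 CPM in LNCaP. H4C15 had 1150, 1170 and 1220 CPM in 22Rv1, 1060, 978 and 909 CPM in C4-2, and 788, 898 and 974 CPM in LNCaP. Both were highest in 22Rv1 and overlapped between C4-2 and LNCaP. H3C2 had 532, 584 and 595 CPM in 22Rv1, 803, 743 and 740 CPM in C4-2, and 401, 441 and 458 CPM in LNCaP. H4C12 had 388, 441 and 438 CPM in 22Rv1, 726, 697 and 658 CPM in C4-2, and 377, 433 and 494 CPM in LNCaP. Both chromosome 6 genes were highest in C4-2.

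Several members encode the same protein, so reads can be shared between them. All 13 H4 members encode 1 protein, the 11 H3 members encode 2, the 15 H2A members 9 and the 15 H2B members with a coding model 12. Those with identical coding sequence were counted very unequally. H2AC18 held 7.54 to 9.62 times the reads of H2AC19 over the 54 libraries, H3C14 7.61 to 9.09 times those of H3C15, H4C15 9.36 to 11.2 times those of H4C14, and H4C12 5.69 to 7.12 times those of H4C11. How much of each ratio comes from the way reads were assigned was not tested, and the split between such copies is uncertain.

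**Figure D2:**
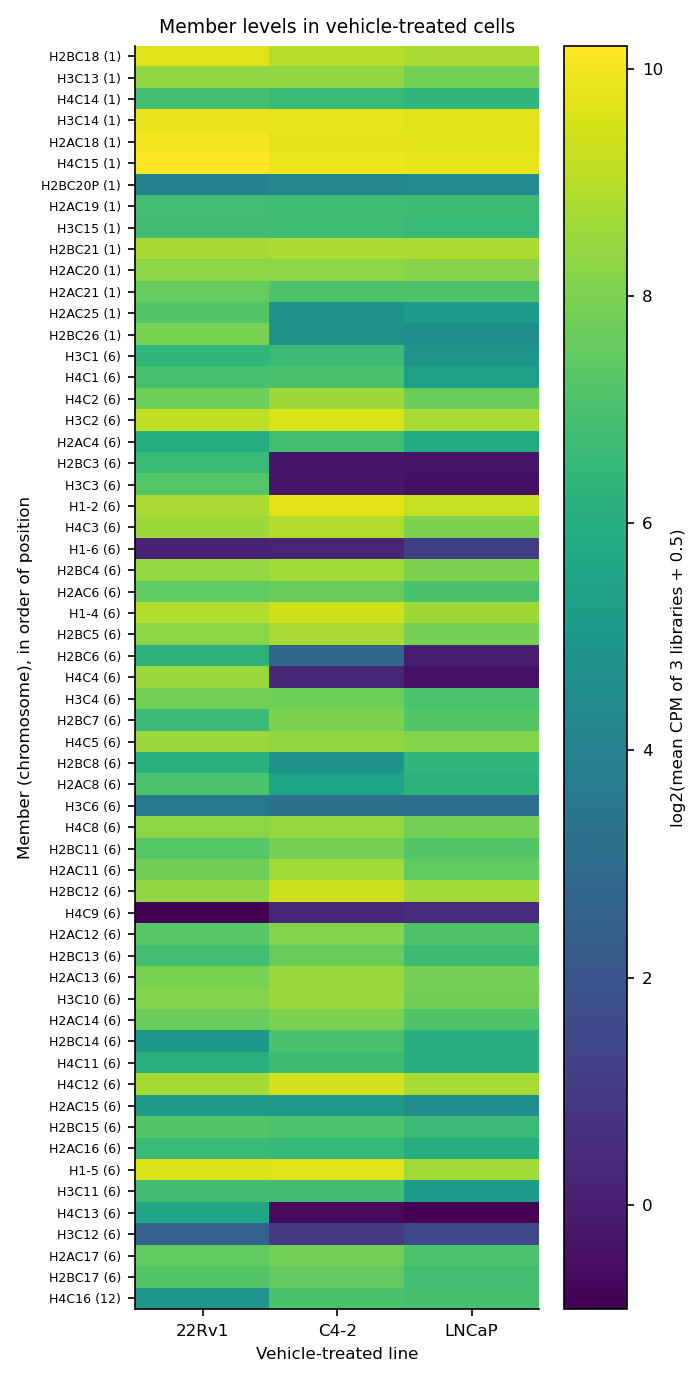
Levels of the 59 members in vehicle cells as log2(mean CPM of 3 libraries + 0.5), with members in order of position and 1 column each for 22Rv1, C4-2 and LNCaP. H4C4, H3C3, H2BC3 and H4C13 are high in 22Rv1 and at the bottom of the scale in C4-2 and LNCaP.

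Not every member was in use in every line. A level of 1 CPM was reached in all 18 libraries by 57 members in 22Rv1, 52 in C4-2 and 53 in LNCaP, and in no library by 1, 4 and 5 members. H4C4 (gene ID 8360, chr6:26188710-26189112) had 354, 374 and 383 CPM in 22Rv1 vehicle cells, against 0.269, 0.306 and 0.198 CPM in LNCaP vehicle cells. H3C3 (8352, chr6:26045384-26045869) had 144, 161 and 160 CPM in 22Rv1, against 0.207, 0.255 and 0.198 CPM in LNCaP. H2BC3 (3018, chr6:26043227-26043713) had 91.4, 94.8 and 96.5 CPM in 22Rv1, against 0.207, 0.255 and 0.506 CPM in LNCaP. For these 3 genes, every 22Rv1 library lay far above every C4-2 and LNCaP library, with no overlap.

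On the log2(CPM + 0.5) scale, which understates the change of low genes, H4C4 was 8.94 ± 0.23 (SE) higher in 22Rv1 than in LNCaP, H3C3 7.75 ± 0.17 higher and H2BC3 6.86 ± 0.18 higher. These genes met the inclusion rule through their 22Rv1 levels, so the differences are a description and no test is given. Against C4-2, the differences were 8.59 for H4C4, 7.64 for H3C3 and 6.90 for H2BC3. Over all 18 libraries of a line, H4C4 ranged from 354 to 467 CPM in 22Rv1, from 0.0694 to 1.97 in C4-2 and from 0.133 to 0.488 in LNCaP. H4C13 (8368, chr6:27873148-27873534) ranged from 47.6 to 70.2 CPM in 22Rv1 and had no read in 16 of 18 C4-2 libraries and 11 of 18 LNCaP libraries.

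H2BC6 (8344, chr6:26183761-26184230), an H2B gene beside H4C4, took 3 separate levels. It ranged from 74.1 to 104 CPM in 22Rv1, from 4.62 to 7.18 in C4-2 and from 0.272 to 0.827 in LNCaP. H2BC26, on the long arm of chromosome 1, ranged from 238 to 330 CPM in 22Rv1, 21.1 to 29.8 in C4-2 and 20.5 to 28.4 in LNCaP, where the last pair of ranges overlap. Of the members at the edge of the inclusion rule, H4C13, H2BC3 and H3C3 reached 1 CPM in 18 libraries and H4C4 in 19. H4C9 reached it in 12 libraries, none of them of 22Rv1, and H1-6 in 25, among them all 18 of LNCaP. Just outside the rule, H2AC1, H2BC1, H1-3 and H2AC7 reached at most 0.361, 0.786, 0.548 and 0.614 CPM.

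**Figure D3:**
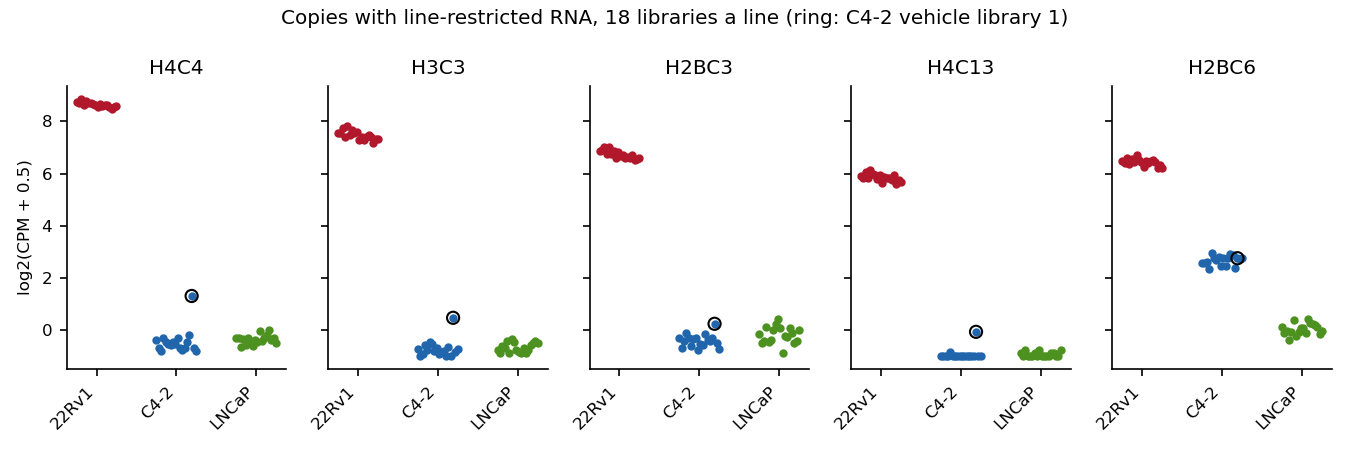
Level of H4C4, H3C3, H2BC3, H4C13 and H2BC6 as log2(CPM + 0.5) in the 18 libraries of 22Rv1, C4-2 and LNCaP, with 1 point for each library and a ring around C4-2 vehicle library 1. The 22Rv1 points lie above all others, and the ringed library tops the C4-2 points for H4C4, H3C3, H2BC3 and H4C13, at 1.97, 0.882, 0.679 and 0.452 CPM.

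The promoters of H4C4, H3C3 and H2BC3 are shown because these copies separate 22Rv1 from the other lines, beside that of H3C2, a nearby gene expressed in all lines. Each is the 180 bases before the RefSeq start on GRCh38.p14, and capitals mark ATTTGCAT (the octamer bound by POU2F1), TATAAA (the TATA box), CCAAT (the box bound by NF-Y) or TGACGTCA (the cyclic AMP response element) on either strand.
H4C4: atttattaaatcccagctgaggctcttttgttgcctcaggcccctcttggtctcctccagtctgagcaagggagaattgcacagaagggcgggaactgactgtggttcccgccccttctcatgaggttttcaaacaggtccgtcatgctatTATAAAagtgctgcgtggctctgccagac
H3C3: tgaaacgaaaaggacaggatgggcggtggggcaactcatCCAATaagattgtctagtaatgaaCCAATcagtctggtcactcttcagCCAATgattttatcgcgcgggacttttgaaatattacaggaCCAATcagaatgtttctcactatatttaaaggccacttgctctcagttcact
H2BC3: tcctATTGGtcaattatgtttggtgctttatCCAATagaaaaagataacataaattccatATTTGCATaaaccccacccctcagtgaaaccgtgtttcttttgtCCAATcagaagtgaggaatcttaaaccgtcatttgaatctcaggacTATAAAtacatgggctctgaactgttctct
H3C2: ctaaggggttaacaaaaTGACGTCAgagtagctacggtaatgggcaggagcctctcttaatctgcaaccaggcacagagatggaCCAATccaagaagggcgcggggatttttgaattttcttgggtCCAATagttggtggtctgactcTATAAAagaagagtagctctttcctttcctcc
They lie at chr6:26189113-26189292, minus strand (H4C4), chr6:26045204-26045383, plus strand (H3C3), chr6:26043714-26043893, minus strand (H2BC3) and chr6:26032100-26032279, minus strand (H3C2). H3C3 carried CCAAT only, H2BC3 the octamer, CCAAT and TATAAA, and H4C4 TATAAA only in the stretch shown. RefSeq gave a promoter for 53 of the 59 members. In the 250 bases before the start, the octamer was found in 21 of the 53 (39.6%) and in 1.58% of 27247 other promoters. It was held by 11 of 15 H2B, 9 of 14 H2A and 1 of 9 H3 promoters, and by none of the H1 or H4 promoters. TATAAA was found in 67.9% of the members (11% of the others), CCAAT in 83% (32.9%) and TGACGTCA in 17% (1.74%). CCAAT was held by all H1, H2A, H2B and H3 promoters but by only 2 of 11 H4 promoters (18.2%). These matches describe letters and do not show binding.

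Between C4-2 and its parent LNCaP, both in vehicle, 39 of 59 members were higher in C4-2 and 6 lower, with a median log2 difference of 0.59. Of all 16026 genes tested, 5452 were called higher and 5245 lower (66.7% called). Scaling by total reads gave 34 members higher and 9 lower, with a median of 0.47, and moved the median of all genes to -0.10. H3C1 had 109, 99.3 and 97.3 CPM in C4-2 cells, against 25.7, 28.2 and 33.8 CPM in LNCaP cells, a difference of 1.79 ± 0.07. H3C11 had 115, 110 and 109 CPM in C4-2, against 33.3, 35.1 and 38.9 CPM in LNCaP, a difference of 1.63 ± 0.06. Both genes encode the H3 protein of the chromosome 6 cluster, and their ranges did not overlap between the lines.

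H2BC8 (8339, chr6:26216200-26216688) went the other way, with 27.1, 26.8 and 25.8 CPM in C4-2 against 78, 86.3 and 88.3 CPM in LNCaP, a difference of -1.64 ± 0.06. Its divergent neighbour H2AC8 (3012, chr6:26216921-26217437) had 48, 44.6 and 45.2 CPM in C4-2 against 72.1, 77.8 and 82 CPM in LNCaP, a difference of -0.74. The pair was lower in C4-2 in every library. H2BC6 differed most, by 2.77 ± 0.14, with 6.24, 6.14 and 6.29 CPM in C4-2 against 0.58, 0.408 and 0.484 CPM in LNCaP. The linker gene H1-6, known from testis, was low in both lines, with 0.543, 0.62 and 0.85 CPM in C4-2 against 1.8, 1.48 and 1.76 CPM in LNCaP. H2BC6 reached 1 CPM in no LNCaP library and H1-6 in no C4-2 library, so both met the inclusion rule through the other lines.

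The excess in C4-2 lay mostly on chromosome 6. There, 34 of 44 members were higher and 4 lower, with a median of 0.69, while on chromosome 1, 5 of 14 were higher and 2 lower, with a median of 0.13. The summed chromosome 6 members had 11086 ± 526 CPM in C4-2 and 6619 ± 566 CPM in LNCaP, and the summed chromosome 1 members 4837 ± 297 CPM in C4-2 and 4475 ± 343 CPM in LNCaP (SD, n = 3 each). By family, 3 H1 members were higher and 1 lower, 10 H2A higher and 2 lower, 11 H2B higher and 2 lower, 6 H3 higher and 1 lower, and 9 H4 higher with none lower. Of 27 genes of the G1/S transition and DNA replication, 22 were higher in C4-2, with a median of 0.36. In the same comparison, 5452 of all 16026 genes were called higher and 5245 lower (66.7% called).

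**Figure D4:**
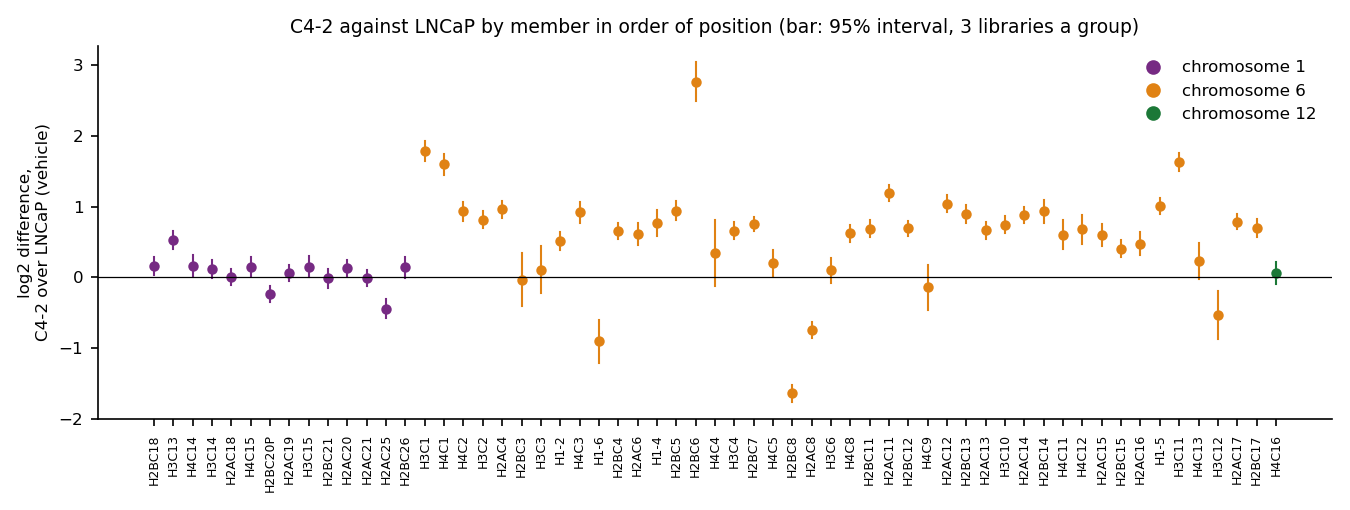
Log2 difference of each member between C4-2 and LNCaP vehicle cells, in order of position and coloured by chromosome 1, 6 or 12, with 95% intervals. The chromosome 6 members reach from -1.64 (H2BC8) to 2.77 (H2BC6), and the chromosome 1 members lie closer to 0.

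In 22Rv1 against LNCaP, 42 of 59 members were higher and 9 lower, with a median of 0.40. Of all 16026 genes tested, 6470 were called higher and 6885 lower (83.3% called). The member counts include H4C4, H3C3, H2BC3 and H4C13, which were members because of their 22Rv1 levels. H4C16, the lone chromosome 12 gene (chr12:14770720-14771131), had 29, 31.9 and 28 CPM in 22Rv1, against 108, 126 and 132 CPM in LNCaP, a difference of -2.02 ± 0.08. H2BC14 had 29.7, 33.8 and 32.7 CPM in 22Rv1, against 59, 66.9 and 72.9 CPM in LNCaP, a difference of -1.03 ± 0.08. In both genes 22Rv1 lay below LNCaP with no overlap. H4C9 had 0, 0.108 and 0.0428 CPM in 22Rv1, against 1.28, 0.79 and 0.594 CPM in LNCaP. It reached 1 CPM in no 22Rv1 library and met the inclusion rule through LNCaP and C4-2.

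In 22Rv1 against C4-2, 18 members were higher and 27 lower, with a median of -0.08. Of all 16026 genes tested, 6645 were called higher and 6937 lower (84.7% called). The 18 members again include H4C4, H3C3, H2BC3 and H4C13. That balance turned with the scaling: total reads gave 30 higher and 21 lower, with a median of 0.15 and a median of all genes of 0.22, and cyclic loess gave 31 higher and 19 lower, with a median of 0.16. The members furthest below zero were H4C16, by -2.09 (against 133, 129 and 120 CPM in C4-2), and H2BC14, by -1.97 (against 137, 124 and 119 CPM in C4-2). H2BC7 had 97.4, 99.5 and 101 CPM in 22Rv1 and 269, 249 and 247 CPM in C4-2, a difference of -1.35 ± 0.05.

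Genes close together moved alike only in part. H3C1 and H4C1, 691 bases apart, differed from LNCaP by 1.79 and 1.60 in C4-2 and by 1.52 and 1.54 in 22Rv1. H2BC3 and H3C3, which lie head to head 1671 bases apart, were both restricted to 22Rv1. H2BC6 and H4C4, 4480 bases apart, split in C4-2, where H2BC6 differed from LNCaP by 2.77. H4C4 had 1.97, 0.124 and 0.0773 CPM in C4-2 vehicle cells, so library 1, the one with the 22Rv1 tag, was the only one above the LNCaP vehicle libraries. Among 11 head-to-head pairs less than 500 bases apart, partners differed by a median of 0.19 log2 units in the C4-2 against LNCaP comparison (0.05 to 0.90) and by 0.29 in the 22Rv1 against LNCaP comparison (0.05 to 1.54). The widest was H2AC14 and H2BC14, with 0.51 and -1.03 in 22Rv1.

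Estradiol raised replication-dependent histone RNA in 22Rv1 cells. Of 58 members tested, 49 were higher with E2 than with vehicle and none lower, with a median log2 difference of 0.28, where 27.7% of all genes were called and 17.1% were called higher. The summed level was 18920, 18008 and 17462 CPM with E2, against 14156, 15074 and 15347 CPM with vehicle, a ratio of means of 1.22, and the groups did not overlap. With the authors' library sizes, 2540 of all genes were higher and 1578 lower, while scaling by total reads gave 1010 higher and 2120 lower, and 41 members higher. Cyclic loess gave 30 members higher, with a median of 0.18.

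All 4 H1 members rose, as did 14 of 15 H2A, 15 of 16 H2B, 9 of 11 H3 and 7 of 12 H4 members, with family medians of 0.31, 0.28, 0.29, 0.32 and 0.22. H2BC8 had 97.6, 96.5 and 92 CPM with E2, against 64.2, 73.3 and 73.9 CPM with vehicle, a difference of 0.44 ± 0.07 (adjusted p = 2.64e-05). H4C14 (8370, chr1:149832657-149833052) had 162, 152 and 136 CPM with E2, against 109, 110 and 121 CPM with vehicle, a difference of 0.40 ± 0.06 (3.02e-05). H2AC8 had 171, 160 and 162 CPM with E2, against 129, 134 and 135 CPM with vehicle, a difference of 0.31 ± 0.05 (4.27e-05). In each of the 3 genes, the lowest E2 library stood above the highest vehicle library.

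Of the 10 members with the highest CPM by family, 9 rose and H4C12 was not called. H4C15 had 1620, 1550 and 1400 CPM with E2, against 1150, 1170 and 1220 CPM with vehicle (0.37 ± 0.06). The linker gene H1-5 had 993, 987 and 949 CPM with E2, against 737, 802 and 817 CPM with vehicle (0.32 ± 0.07). H3C14 had 1220, 1190 and 1110 CPM with E2, against 889, 922 and 966 CPM with vehicle (0.34 ± 0.07). None of these 3 genes overlapped between the groups. H2AC18 had 1280, 1280 and 1200 CPM with E2, against 967, 1010 and 1050 CPM with vehicle (0.32 ± 0.06). H2AC20, another H2A gene of chromosome 1, had 413, 373 and 387 CPM with E2, against 294, 317 and 318 CPM with vehicle (0.34 ± 0.06). H3C2 had 749, 715 and 688 CPM with E2, against 532, 584 and 595 CPM with vehicle (0.33 ± 0.07). These groups did not overlap either. H2BC12 had 421, 414 and 388 CPM with E2, against 302, 327 and 341 CPM with vehicle (0.34 ± 0.06). H2BC18 had 1050, 922 and 965 CPM with E2, against 759, 836 and 821 CPM with vehicle (0.28 ± 0.07). H1-2 had 559, 536 and 531 CPM with E2, against 425, 452 and 460 CPM with vehicle (0.28 ± 0.07). Again no E2 library lay among the vehicle libraries, but H2BC18 and H1-2 fell short of the threshold under cyclic loess, at 0.16 for H2BC18 and 0.17 for H1-2.

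The copies restricted to 22Rv1 did not all pass the test. H3C3 had 201, 187 and 191 CPM with E2, against 144, 161 and 160 CPM with vehicle, and was called. H4C4 had 414, 405 and 392 CPM with E2, against 354, 374 and 383 CPM with vehicle, a difference of 0.13 ± 0.05 that was not called (adjusted p = 0.0703). The other members not called were H4C12, H4C3, H3C12, H4C11, H4C16, H2AC15, H3C6 and the pseudogene H2BC20P, which had 14.1, 13.4 and 13.8 CPM with E2, against 15.1, 15 and 15.5 CPM with vehicle. H4C12 had 515, 432 and 491 CPM with E2, against 388, 441 and 438 CPM with vehicle, and its groups overlapped.

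By cluster, 13 of 14 members were called on chromosome 1 (median 0.29) and 36 of 43 on chromosome 6 (median 0.28). All 6 members listed as having known polyadenylated forms were called (median 0.28), as were 43 of the other 52 (median 0.28). Neither pair was tested for a difference. Members are abundant, and calls rise with level: among other genes, 37.8% were called higher at 100 CPM or more, 19.2% between 10 and 100 CPM and 4.72% below 10 CPM.

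In C4-2 and LNCaP cells E2 gave few calls. In C4-2, limma called 0 of 54 members (4 at an unadjusted p under 0.05, and 0 with limma-voom), with a median of -0.05, where 5.82% of all genes were called. In LNCaP, 1 of 54 was higher and 2 lower, with a median of 0.05, where 24.9% of all genes were called. H3C13 had 195, 193 and 191 CPM with E2, against 211, 232 and 250 CPM with vehicle, a difference of -0.26 ± 0.05 (adjusted p = 0.000124). H2AC25 (92815, chr1:228457364-228457873) had 31.5, 31.2 and 29.2 CPM with E2, against 33.6, 38.5 and 40.7 CPM with vehicle, a difference of -0.29 ± 0.05 (0.000149). H3C4 had 146, 149 and 147 CPM with E2, against 123, 135 and 145 CPM with vehicle (0.14 ± 0.04, 0.0242). The LNCaP count rested on the vehicle group, whose members summed to 10254 to 12087 CPM: leaving out vehicle library 3 gave 16 higher and 2 lower, and leaving out vehicle library 1 gave none higher and 4 lower.

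**Figure D5:**
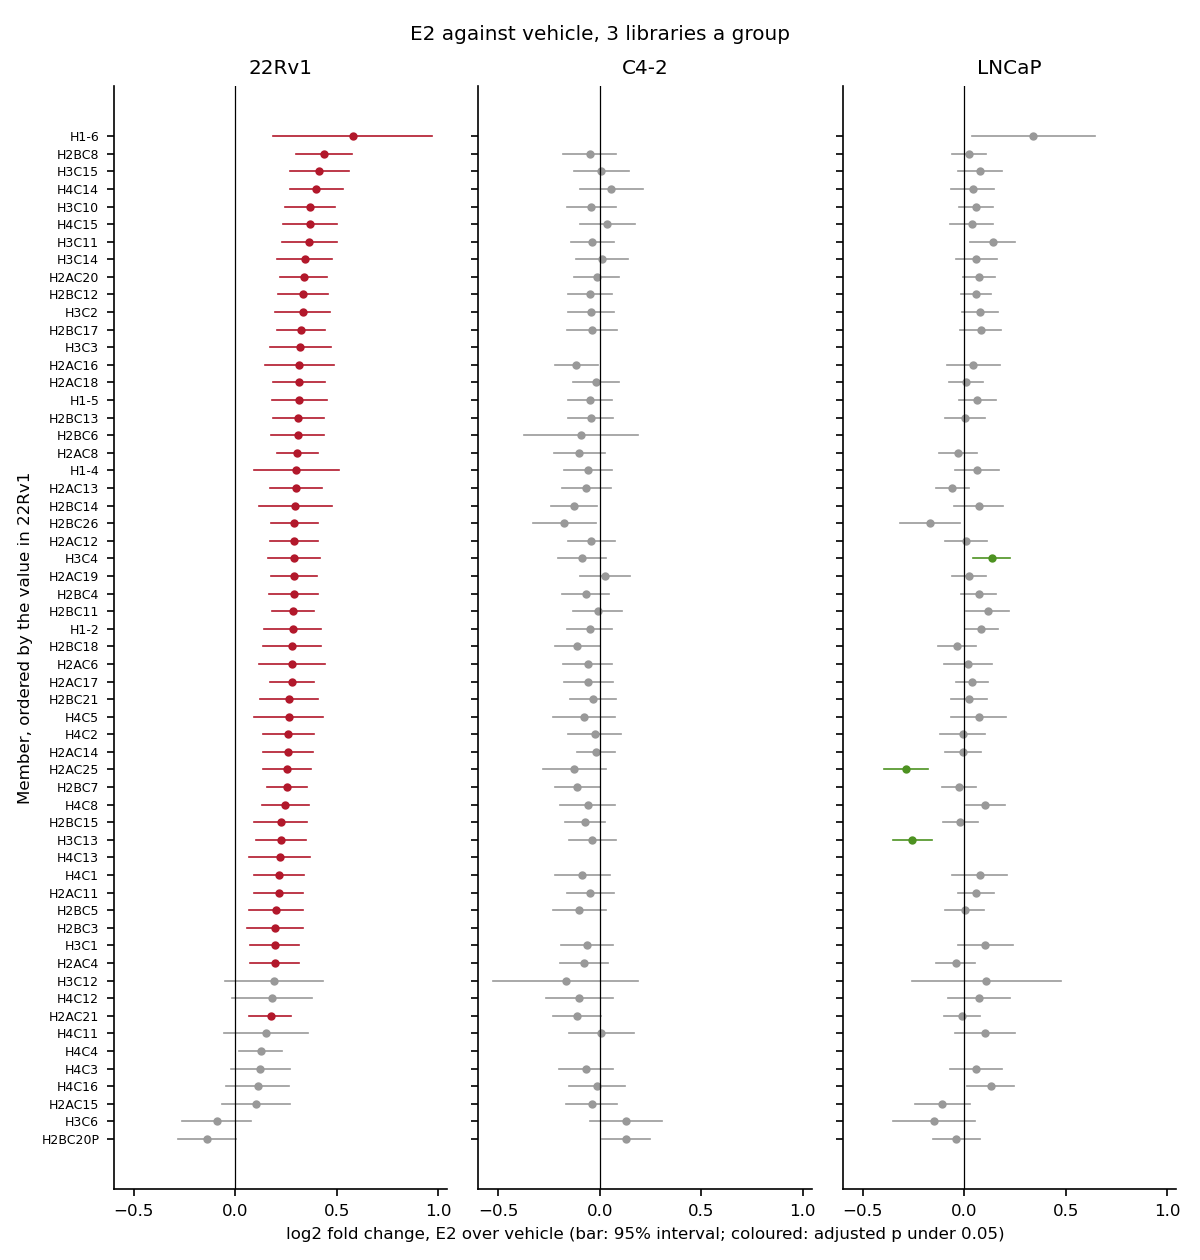
Log2 difference between E2 and vehicle for each member in 22Rv1, C4-2 and LNCaP, ordered by the 22Rv1 value, with 95% intervals, coloured where the adjusted p is below 0.05. In 22Rv1, 49 members are coloured, all above 0, against none in C4-2 and 3 in LNCaP.

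The E2 effect itself differed between the lines for 42 of 59 members (F test in the joint fit of all libraries), where 29.1% of all genes did. It was higher in 22Rv1 than in C4-2 for 47 members and lower for H2BC20P, with a median difference of 0.34 (28.8% of all genes called). Without C4-2 E2 library 3, 28 were higher and 1 lower. The effect was higher in 22Rv1 than in LNCaP for 24 members, with a median of 0.24 (11.2% of all genes called, 6.83% higher). This count was 10 without LNCaP vehicle library 3 or without 22Rv1 E2 library 1, and 11 without 22Rv1 vehicle library 1. The 59 members include H4C4, H3C3, H2BC3 and H4C13, which met the inclusion rule through their 22Rv1 levels. In C4-2 and LNCaP they lay near the floor, where the log2(CPM + 0.5) scale can show little E2 effect. The same holds for H1-6 in C4-2. For these members a difference between lines is a description and not a test. H2BC8 had the E2 effect higher in 22Rv1 by 0.49 against C4-2 and by 0.42 against LNCaP. Between C4-2 and LNCaP, limma called 0 members (6 at an unadjusted p under 0.05, and 0 with limma-voom), where 8.41% of all genes were called. Leaving out LNCaP vehicle library 3 gave 3 calls, with 2 without C4-2 E2 library 2, and 1 without LNCaP vehicle library 1 or C4-2 vehicle library 3.

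Among genes that handle histone mRNA, TUT7 rose with E2 in all 3 lines. It had 70.6, 64.7 and 72.6 CPM with E2 in 22Rv1, against 37.8, 34.8 and 34.7 CPM with vehicle, a difference of 0.94 ± 0.07 (adjusted p = 6.97e-11). In C4-2 it differed by 0.38 (4.2e-05) and in LNCaP by 0.75 (3.54e-13). SLBP had 145, 155 and 142 CPM with E2 in 22Rv1, against 119, 122 and 118 CPM with vehicle (0.30, 1.79e-05), and differed by 0.12 in LNCaP. Of the 18 genes listed for transcription and 3′ processing of histone mRNA, 2 rose in 22Rv1 and 2 fell, namely POU2F1 (-0.18) and LSM11 (-0.19). Both also fell with E2 in LNCaP, by -0.189 for POU2F1 and -0.305 for LSM11, and neither was called in C4-2.

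Genes of the S phase rose beside the members in 22Rv1. In the list of 27 genes of G1/S and DNA replication, 18 rose with E2 (median 0.18), among them the cyclin CCNE2 (0.48), the ribonucleotide reductase subunit RRM2 (0.36) and the origin licensing factor CDC6 (0.27). Of 20 G2/M genes, 8 were higher, and of 17 histone chaperones, 6 were higher, such as ASF1B (0.29) and CHAF1B (0.27), and ATRX was lower. Of 11 replication-independent histones, 8 were higher, such as H2AX (0.30) and H2AZ1 (0.28). The share of all genes called in 22Rv1 was 27.7%. In LNCaP, where 24.9% of all genes were called, E2 raised 4 of the G1/S genes and lowered 2, raised 9 of 20 G2/M genes and raised 6 of 12 replication-independent histones. In C4-2, 1 G1/S gene was lower and none higher, and limma called none of the G2/M genes (5 at an unadjusted p under 0.05; 5.82% of all genes called). Whether the cell cycle genes account for the members' rise was not tested.

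E2 with Enza also raised most members in 22Rv1. Against vehicle, 49 of 58 members were higher with E2+Enza and 1, H2BC20P, was lower, with a median of 0.31 (13.8% of all genes called). The summed level was 18292, 18017 and 20028 CPM, above all 3 vehicle libraries. H2BC11 rose by 0.38 ± 0.05 (4.83e-06) and H4C14 by 0.46. Comparing E2+Enza with E2, limma called 0 members (5 at an unadjusted p under 0.05, and 0 with limma-voom; 1.2% of all genes called). Against Enza, E2+Enza raised 25 members, with a median of 0.17 (7.94% of all genes called, 4.11% higher). H4C15 had 1620, 1500 and 1700 CPM with E2+Enza, against 1260, 1340 and 1220 CPM with Enza (0.33 ± 0.06, adjusted p = 0.000873). The 25 fell to 6 without E2+Enza library 3 and to 13 without Enza library 1 or 3. In the same comparison, 13 of 27 G1/S genes were higher. The E2 by Enza interaction was called for 0 members (6 at an unadjusted p under 0.05, and 0 with limma-voom; 0.424% of all genes called), and 1 without E2+Enza library 3.

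Enza alone called 0 of 58 members in 22Rv1 with limma (30 at an unadjusted p under 0.05, and 0 with limma-voom), where 0.659% of all genes were called. All 58 estimates were above 0, with a median of 0.14. The median was 0.02 for all genes and 0.05 for other genes at 100 CPM or more. The 58 estimates come from the same libraries and are not independent results. Without OSU+Enza library 2, 4 members were called. The summed level was 16340 ± 264 CPM with Enza and 14859 ± 624 CPM with vehicle (SD, n = 3 each), without overlap. In C4-2, limma called 0 of 54 (3 at an unadjusted p under 0.05, and 1 with limma-voom; 8.44% of all genes called), and 1 without E2 library 2, Enza library 1 or E2+Enza library 3.

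In LNCaP, 4 of 54 members were higher with Enza (20.4% of all genes called, 9.79% higher). H2AC15 had 28.8, 27.1 and 26.4 CPM with Enza, against 21.2, 23.2 and 25.8 CPM with vehicle (0.23 ± 0.07, adjusted p = 0.015). H3C1 had 35.3, 32.3 and 33.1 CPM with Enza, against 25.7, 28.2 and 33.8 CPM with vehicle (0.21 ± 0.07, 0.0266), and 1 vehicle library lay among the Enza libraries. H2BC15 had 114, 110 and 109 CPM with Enza, against 93.4, 102 and 107 CPM with vehicle (0.14 ± 0.04, 0.0162), and H4C16 was the other one, at 0.18. No member was called without vehicle library 1 or Enza library 1, and 15 were called without vehicle library 3. In the same comparison, 13 of 27 genes of the G1/S list fell and none rose, and SLBP fell by 0.24 and TUT7 by 0.31.

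OSU alone called no member in any line with limma. At an unadjusted p under 0.05 there were 3 of 58 in 22Rv1, 0 of 54 in C4-2 and 0 of 54 in LNCaP, limma-voom called 0 in each, and 0%, 0% and 0.014% of all genes were called. For H4C15 the difference between OSU and vehicle had a 95% interval of -0.09 to 0.18 in 22Rv1, -0.01 to 0.26 in C4-2 and -0.01 to 0.21 in LNCaP. In the mean over the 3 lines, limma again called 0 of 59 (12 at an unadjusted p under 0.05, and 0 with limma-voom; 0% of all genes called).

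E2 and OSU, both given at 100 nM for 12 h, were compared in 3 pairs, 1 for each line, with p-values adjusted over all genes. In 22Rv1, 36 members were higher with E2 than with OSU, with a median of 0.20 (22.0% of all genes called, 13.2% higher), and this fell to 15 without E2 library 1 or OSU library 1 and to 22 without OSU library 3. H4C15 had 1620, 1550 and 1400 CPM with E2, against 1210, 1250 and 1200 CPM with OSU (0.32 ± 0.06, adjusted p = 0.000724). H2BC8 had 97.6, 96.5 and 92 CPM with E2, against 70.4, 76.1 and 73.7 CPM with OSU (0.38 ± 0.07, 0.000205). Neither gene overlapped between the compounds. In C4-2, limma called 0 (16 at an unadjusted p under 0.05, and 0 with limma-voom; 5.95% of all genes called), with 4 calls without E2 library 2 and 1 without E2+Enza library 3. The interval for H4C15 in C4-2 was -0.22 to 0.05. In LNCaP, 2 members were higher with E2 and 3 lower (24.6% of all genes called): H1-2 by 0.13, H1-6 by 0.40, H3C13 by -0.30, H2AC25 by -0.22 and H2BC26 by -0.25. Leaving out LNCaP vehicle library 1 or 3 gave 9 calls, and leaving out E2 library 3 gave 3.

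OSU with Enza also raised members in 22Rv1, with a count that rested on single libraries. Against vehicle, 28 of 58 members were higher and none lower, with a median of 0.24 (1.99% of all genes called, 0.666% higher). H4C16 had 36.9, 48.2 and 40.6 CPM with OSU+Enza, against 29, 31.9 and 28 CPM with vehicle (0.49 ± 0.08, adjusted p = 0.000211). H2BC21 had 493, 657 and 539 CPM with OSU+Enza, against 402, 435 and 426 CPM with vehicle (0.41, 0.000801). In both genes, and in the summed level of 16155, 19964 and 17156 CPM, OSU+Enza library 2 stood highest, a library with 4.04% small RNA. Enza library 3 had 4.36% small RNA and a summed level of 16439 CPM, within the range of the other Enza libraries. Without OSU+Enza library 2, 5 members were called, and without OSU+Enza library 1 there were 49. Dropping vehicle library 1, 2 or 3 left 4, 13 and 18. None of the 27 G1/S genes was called in this comparison (1.99% of all genes called).

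Against Enza, OSU+Enza called 0 of 58 members in 22Rv1 with limma (18 at an unadjusted p under 0.05; 0.101% of all genes called), 0 of 54 in C4-2 (1; 0%) and 0 of 54 in LNCaP (1; 0.0982%), and limma-voom called 0 in each. The mean over the 3 lines gave 0 of 59 (10 at an unadjusted p under 0.05, and 0 with limma-voom; 0.443% of all genes called). The OSU by Enza interaction was called for 0 members in each line by limma and by limma-voom (0% of all genes called), with 1 in 22Rv1, 0 in C4-2 and 1 in LNCaP at an unadjusted p under 0.05.

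In LNCaP, 7 members were higher with OSU+Enza than with vehicle (29.7% of all genes called, 14.5% higher): H4C16, H2BC7, H2BC21, H2AC15, H3C4, H2BC15 and H2AC11. H4C16 had 140, 149 and 147 CPM with OSU+Enza, against 108, 126 and 132 CPM with vehicle (0.26 ± 0.06, adjusted p = 0.0012), without overlap. Leaving out vehicle library 1 gave 1 call and leaving out vehicle library 3 gave 20, with 12 without OSU+Enza library 1 and 2 without OSU+Enza library 2 or 3. E2+Enza against Enza lowered 6 members (23.1% of all genes called, 10.9% lower): H2BC15, H3C13, H4C1, H2BC7, H2AC4 and H2AC15. H2BC15 had 92.1, 98.2 and 102 CPM with E2+Enza, against 114, 110 and 109 CPM with Enza (-0.19, 0.00112), without overlap. That count was 2 without Enza library 1 or E2+Enza library 1 and 10 without Enza library 3.

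E2+Enza against vehicle called 0 of 54 in LNCaP (3 at an unadjusted p under 0.05, and 0 with limma-voom; 7.42% of all genes called), though 3 without vehicle library 1 and 1 without vehicle library 3, Enza library 1 or Enza library 3. E2+Enza against E2 raised H2AC25 by 0.21 (13.5% of all genes called, 6.27% higher), with 3 calls without vehicle library 1 and 2 without vehicle library 3 or E2+Enza library 1. H4C1 had 38, 41.2 and 40.3 CPM with E2+Enza, 45.7, 45.2 and 42.3 with E2, 46.6, 46.9 and 46.9 with Enza and 38.1, 41 and 47.7 with vehicle, and was the only LNCaP member with an E2 by Enza interaction (-0.31 ± 0.09, adjusted p = 0.036; 9.05% of all genes called, 4.54% lower). H4C1 lost the call without vehicle library 2, E2 library 1 or 2, Enza library 1 or 2 or E2+Enza library 1, and 13 members were called without vehicle library 3.

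In C4-2, OSU+Enza against vehicle raised H2AC15 (7.39% of all genes called, 2.15% higher), which had 40.2, 42.3 and 43.2 CPM with OSU+Enza, against 37.1, 35.1 and 34.3 CPM with vehicle, a difference of 0.24 (adjusted p = 0.015) that was not called without vehicle library 2 or 3 or OSU+Enza library 2 or 3. E2+Enza against Enza lowered H2BC15 (-0.17), H2BC20P (-0.21) and H2AC15 (-0.20), where 7.38% of all genes were called and 2.94% were lower, and none of these was called without Enza library 1 or E2+Enza library 2, and 1 without Enza library 3. E2+Enza against vehicle called 0 (6 at an unadjusted p under 0.05; 0.0784% of all genes called), and E2+Enza against E2 called 0 (1; 3.46%), both also 0 with limma-voom. H2BC20P was the only C4-2 member with an E2 by Enza interaction (-0.34 ± 0.08, adjusted p = 0.033; 1.5% of all genes called, 0.442% lower). It had 18.2, 17.1 and 17.7 CPM with E2+Enza, 20.7, 18.7 and 19.9 with E2, 21.1, 20 and 20.2 with Enza and 17.4, 17.9 and 18.6 with vehicle. The call held only without vehicle library 3, E2 library 2, E2+Enza library 1 or a library of the OSU groups, and was lost without each of the other libraries.

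The response to Enza was called different between the lines for 0 of 59 members (6 at an unadjusted p under 0.05, and 0 with limma-voom; 13.3% of all genes called), with 2 and 3 calls without C4-2 vehicle library 2 or 3. The response to OSU was called different for 0 of 59 (2, and 0 with limma-voom; 0%). H2AC8 was the only member whose Enza effect differed between 22Rv1 and C4-2, by 0.22 ± 0.08 (adjusted p = 0.0491; 11.3% of all genes called, 7.57% higher).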

How the data were processed

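RNA of 3 prostate cancer lines, with 6 treatments and 3 libraries each, was measured by stranded total RNA-seq. Per the labels these were biological triplicates, and p-values measure only the spread between these libraries. Reads were aligned to hg38 with Rsubread, per the design text, and FastQC, Trimmomatic, featureCounts and edgeR were named in the submitters' processing notes, without versions. The deposited values are a score: the authors' log2 of (reads + 0.5), scaled by an effective library size to 1000000 reads, divided by a factor that sets the sum of every column to 1000000. Undoing this gave whole reads for 100% of values within 0.01 reads, and CPM was taken over the authors' effective sizes. The strand setting of the counting was not given in the sources used here. Rows lying over another gene's exon, such as H2BC18, H2BC4, H2BC6 and H2BC20P, may hold its reads.

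On log2(CPM + 0.5) values, limma 3.58.1 under R 4.3.3 (empirical Bayes, trended prior variance) tested each gene that reached 1 CPM in 3 or more of the libraries fitted. Each line was fitted alone (18 libraries), and lines were compared in 1 fit of 54 libraries. Tests were two-sided, p-values were adjusted over all genes by the Benjamini-Hochberg method and called at 0.05. Tables were joined with Python 3.11.15, and the fits were tested on simulated data. Members and lists were chosen with earlier results of these data known. Named in full were the 2 members with the highest mean CPM of each family, the 3 with the smallest p in each single-agent comparison with a called member, and the 3 most positive and 3 most negative called in each line comparison. Other lists gave up to 4 genes with the smallest p. Alternatives changed scaling, filter, pseudocount, weights, fit, block, summing of identical proteins and the libraries used. Library depth ranged from 32819568 to 52417050 reads assigned to genes. Stem-loops and exon overlaps came from the hg38 genome and GENCODE gene models, and names and promoters from RefSeq (GRCh38.p14), which matched 18917 of 19225 rows.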

Additional observations from a re-analysis of the deposited data

Results flagged for a closer look

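The E2 effect on replication-dependent histone genes was flagged because a test of the difference between lines was called. Of 59 members, it was called for 42 over the 3 lines, where 29.1% of all genes were called. Between 22Rv1 and C4-2 it was called for 48 (28.8% of all genes), and between 22Rv1 and LNCaP for 24 (11.2%). The 59 include members near the floor in C4-2 and LNCaP, such as H4C4, for which a difference is a description and not a test. H2BC8 differed by 0.487 between 22Rv1 and C4-2 and by 0.415 between 22Rv1 and LNCaP, on the log2 scale. H4C14 differed by 0.343 between 22Rv1 and C4-2 and by 0.357 between 22Rv1 and LNCaP. H2AC8 differed by 0.406 between 22Rv1 and C4-2 and by 0.338 between 22Rv1 and LNCaP, and its Enza effect differed by 0.223 between 22Rv1 and C4-2. H4C1 was flagged for an E2 by Enza interaction of -0.307 in LNCaP, and H2BC20P for one of -0.336 in C4-2. Groups of 3 libraries were not screened for single outlying values by a gap test.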

How the results depend on the processing

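No value of a named member changed sign, but the balance of 22Rv1 against C4-2 turned, to 30 higher and 21 lower with total reads and 31 higher and 19 lower with cyclic loess (18 higher and 27 lower by the authors' library sizes). Over all settings, 1521 recomputed counts of called members stayed within 1.5 times their first value and 140 did not. A count of 0 that stayed 0 also meets this rule, so the total does not measure how stable the other counts are. The counts below are called members, with the count by the authors' library sizes in brackets. Scaling by TMM gave 2 (0) for C4-2 Enza, 2 (1) for C4-2 OSU+Enza against vehicle and 2 (1) for the LNCaP E2 by Enza interaction. Scaling by total reads gave, in LNCaP, 5 (3) for E2, 2 (0) for E2+Enza against vehicle, 10 (6) for E2+Enza against Enza, 2 (1) for the E2 by Enza interaction, 10 (5) for E2 against OSU and 2 (1) for E2+Enza against E2. In C4-2 it gave 4 (0) for Enza, 4 (1) for OSU+Enza against vehicle, 11 (3) for E2+Enza against Enza and 1 (0) for E2 against OSU, and it gave 2 (0) for the E2 effect of C4-2 minus LNCaP. Cyclic loess gave 30 (49) for E2, 14 (36) for E2 against OSU and 1 (0) for E2+Enza against E2 in 22Rv1. It gave 4 (0) for Enza, 4 (1) for OSU+Enza against vehicle and 8 (3) for E2+Enza against Enza in C4-2. It gave 1 (0) for E2+Enza against vehicle and 2 (1) for E2+Enza against E2 in LNCaP, 29 (48) for the E2 effect of 22Rv1 minus C4-2, 1 (0) for that of C4-2 minus LNCaP, and 2 (0) for OSU+Enza against Enza in the mean of the lines. With no filter there were 13 (28) for 22Rv1 OSU+Enza against vehicle and, in LNCaP, 2 (4) for Enza, 4 (7) for OSU+Enza against vehicle and 0 (1) for the E2 by Enza interaction. In 1 fit of all libraries there were, in LNCaP, 2 (4) for Enza, 2 (7) for OSU+Enza against vehicle, 0 (1) for the E2 by Enza interaction and 2 (1) for E2+Enza against E2, in C4-2, 2 (0) for Enza and 1 (3) for E2+Enza against Enza, and 1 (0) for 22Rv1 Enza. With limma-voom there was 1 (0) for C4-2 Enza.

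A further setting left out 4 libraries: C4-2 vehicle library 1, C4-2 E2 library 3, 22Rv1 vehicle library 3 and 22Rv1 OSU+Enza library 2. It kept 22Rv1 Enza library 3. In 22Rv1 this setting gave 3 (0) for Enza and 4 (28) for OSU+Enza against vehicle. In C4-2 it gave 2 (1) for OSU+Enza against vehicle, 5 (3) for E2+Enza against Enza and 0 (1) for the E2 by Enza interaction. Between lines it gave 24 (48) for the E2 effect of 22Rv1 minus C4-2 and 1 (0) for that of C4-2 minus LNCaP. Members with a coding model encode 4 H1, 9 H2A, 12 H2B, 2 H3 and 1 H4 proteins. Summing members of identical protein therefore left fewer rows to call, a smaller base than that of the counts in brackets. This gave, in 22Rv1, 28 (49) for E2, 26 (50) for E2+Enza against vehicle, 14 (28) for OSU+Enza against vehicle, 12 (25) for E2+Enza against Enza and 20 (36) for E2 against OSU. It gave 1 (3) for E2, 1 (4) for Enza, 2 (7) for OSU+Enza against vehicle, 1 (6) for E2+Enza against Enza and 0 (1) for the E2 by Enza interaction in LNCaP, and 0 (1) for OSU+Enza against vehicle in C4-2. Between lines it gave 24 (45) for C4-2 against LNCaP, 26 (51) for 22Rv1 against LNCaP, 21 (45) for 22Rv1 against C4-2, 26 (42) for the E2 effect over the lines, 15 (24) for 22Rv1 minus LNCaP and 28 (48) for 22Rv1 minus C4-2. The cause of the other changes was not tested.

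Replicate numbers did not pair the libraries: the deviations of same-numbered libraries had a median correlation of -0.00117 for 22Rv1, -0.00266 for C4-2 and 0.0069 for LNCaP. With the replicate block, 3 (1) members were called for the E2 by Enza interaction in LNCaP, 4 (3) for E2 in LNCaP, 52 (50) for E2+Enza against vehicle and 33 (28) for OSU+Enza against vehicle in 22Rv1.

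Leaving out 1 library at a time gave, in 22Rv1, 33 to 50 for E2, 0 to 4 for Enza, 38 to 54 for E2+Enza against vehicle, 4 to 49 for OSU+Enza against vehicle, 6 to 34 for E2+Enza against Enza, 15 to 42 for E2 against OSU and 0 to 1 for the E2 by Enza interaction. It gave, in LNCaP, 2 to 18 for E2, 0 to 15 for Enza, 0 to 3 for E2+Enza against vehicle, 1 to 20 for OSU+Enza against vehicle, 2 to 10 for E2+Enza against Enza, 1 to 3 for E2+Enza against E2, 3 to 9 for E2 against OSU and 0 to 13 for the E2 by Enza interaction. It gave, in C4-2, 0 to 1 for Enza, 0 to 1 for OSU+Enza against vehicle, 0 to 3 for E2+Enza against Enza, 0 to 4 for E2 against OSU and 0 to 1 for the E2 by Enza interaction. Between lines it gave 40 to 49 for C4-2 against LNCaP, 49 to 52 for 22Rv1 against LNCaP, 44 to 46 for 22Rv1 against C4-2, 29 to 46 for the E2 effect over the lines, 10 to 34 for 22Rv1 minus LNCaP, 29 to 48 for 22Rv1 minus C4-2, 0 to 3 for C4-2 minus LNCaP, and 0 to 3 for the Enza effect over the lines. Members below 1 CPM in a line rest on few reads.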
